A study of Mus musculus with 19 samples.

Results

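The nuclear-encoded genes of oxidative phosphorylation were followed through thymocyte development in mice. Members were chosen by name alone, as the genes named Ndufa, Ndufb, Ndufc, Ndufs or Ndufv with a number, Sdha to Sdhd, Uqcr, Cox4 to Cox8 and Atp5, and 84 of the 28692 genes in the count matrices matched. By complex, 37 members belong to complex I, 4 to complex II, 8 to complex III, 18 to complex IV and 17 to complex V. Atp5sl carries a matching name but is not a subunit of ATP synthase, Cox7a2l is an assembly factor of supercomplexes, and Ndufa4 is also found associated with complex IV. They were kept because the rule took them, and Ndufa4 was counted in complex I by its name.

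Oxidative phosphorylation makes ATP in the inner mitochondrial membrane. Complexes I and II feed electrons from NADH and succinate to ubiquinone, complex III passes them to cytochrome c, complex IV hands them to oxygen, and the protons pumped on the way drive ATP synthase, complex V. Most subunits are encoded in the nucleus and imported, and a small set is encoded by mitochondrial DNA. In the thymus, double-positive (DP) thymocytes are small and mostly quiescent until their T cell receptor (TCR) binds self MHC, after which they mature into CD4 or CD8 single-positive cells.

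Single-cell RNA and surface proteins (CITE-seq, with antibodies that carry DNA tags) were measured in thymocytes of 17 female mice aged 4 to 8 weeks, on 19 lanes in 3 experiments. Of these, 5 were wild-type (WT) C57BL/6 mice. Thymocytes become CD4 cells in AND mice, MHCI-/- mice (no B2m) and OT-II mice (2 of each), called CD4-fated here, and CD8 cells in F5 mice, MHCII-/- mice (no H2-Ab1) and OT-I mice (2 of each), called CD8-fated. AND, F5, OT-I and OT-II mice carry a transgenic TCR, AND and F5 mice also lacked Rag1, and the MHC-deficient mice keep diverse receptors. The MHC-deficient mice and WT mice 1 to 3 (7 mice) were sorted for CD5+TCRb+ cells before loading and the other 10 mice were not, so the sort and the genotype cannot be told apart within an experiment. WT mice 4 and 5 are from the third experiment, where no mouse was sorted, so among WT mice the sort and the experiment cannot be told apart. Cells were gated here on their surface proteins into double negative (DN), DP1 (CD4+CD8+CD69-CD127-), DP2 (CD4+CD8+CD69+CD127-), and CD69+ semimature (SM) and CD69- mature CD4 and CD8 cells. Cells whose RNA clustered as cycling, B cell, myeloid or mixed were taken out of the gates. The CD4 SM gate also held cells in MHCII-/- and OT-I mice. The study reports that CD8-fated cells pass through a CD4+CD8lo stage, which no gate set apart here. The part of such cells in the CD4 SM gate of WT mice was not tested. The UMIs (unique molecular identifiers, each marking a captured RNA molecule) of each mouse and gate were summed and given as CPM, a gene's UMIs scaled to the same total of RNA UMIs in every mouse and gate, or, for all members together, as a percent of RNA UMIs.

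Lanes held 2550 to 9408 barcodes and 9893333 to 43303999 RNA UMIs, and 69243 cells were kept, of which 44519 fell in a gate. Marker RNAs were read in each gate. In WT mice mean Rag1, which recombines TCR genes, went from 1463 CPM in DP1 to 461 CPM in DP2, Itm2a went from 265 to 1553 CPM, Zbtb7b stood at 86.2 CPM in CD4 SM cells, Nkg7 and Runx3 at 340.5 and 293 CPM in CD8 SM cells, and S1pr1 at 381 CPM in CD4 mature cells. In DN cells of WT mice Il2ra was at 238, Hes1 at 195 and Ptcra, the pre-TCR alpha chain, at 92.3 CPM, while Trdc, the delta chain of the gamma-delta TCR, was at 267 and Nkg7 at 265 CPM. Cells with a UMI of any of 6 cycling markers made up 25.9% of DP1, 19.0% of DP2, 18.2% of CD4 SM, 16.8% of CD4 mature, 33.5% of CD8 SM and 29.6% of CD8 mature cells even after the cycling clusters had been taken out, and 62.9% of DN cells (cells were not thinned to one depth). WT mouse 5 gave 1801 of the 4590 such cells in DP1. They made up 59.2% of its DP1 cells, at the lowest depth of the WT mice (median 1318 UMIs per cell). In DP1 of WT mice 1 to 4 they made up 9.18 to 19.4%. Taking such cells out therefore takes most cells of WT mouse 5. Erythrocyte markers summed to at most 1999 CPM in a gate of 1 mouse and had a median under 3 CPM. Pairs of lanes shared 0 to 35 barcodes.

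Among the members, 1 (Cox7b2) had no UMI, and Cox8b and Cox8c with 3 UMIs each, Ndufa4l2 with 4, Cox4i2 with 252, Cox6a2 with 1559, Atp5s with 1682, Cox7a1 with 1748 and Cox6b2 with 5500 were the rarest of the others. Most of these are isoforms known from muscle, testis, lung or hypoxic cells, and 75 or 76 members passed the count filter in each comparison. The highest mean levels over the gates of WT mice were 949 CPM for Atp5e, the epsilon subunit of ATP synthase, 787 CPM for Cox7c, 743 CPM for Cox6c, 686 CPM for Cox4i1 and 669 CPM for Uqcrh, the hinge protein of complex III. Each molecule is counted once at its 3′ end, so a level does not scale with the length of the RNA.

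In each isoform pair of complex IV the common form led. Cox6a1 stood at 253 CPM and Cox6a2 at 0.755 CPM, Cox6b1 at 441 and Cox6b2 at 11 CPM, Cox7a2 at 399 and Cox7a1 at 3.34 CPM, and Cox4i2 at 0.379 CPM. The 3 genes for the c subunit of ATP synthase, Atp5g1, Atp5g2 and Atp5g3, which give the same mature protein from different precursors, lay closer together at 335, 497 and 347 CPM. Complex II genes were lower, with Sdhb, the iron-sulfur subunit, at 172 CPM, Sdha, the flavoprotein, at 123 CPM and the membrane anchors Sdhd and Sdhc at 82.8 and 55.7 CPM. The level of Ndufs4, an accessory subunit needed for a stable complex I, varied most over the gates of WT mice among members tested in every step (SD of the mean log2 CPM over 7 gates 0.38), followed by Uqcr11 (0.33), Atp5g1 (0.31), Ndufa12 (0.31) and Sdhd (0.29). Sdha varied little, with an SD of 0.065.

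Many respiratory genes carry sites for the factors NRF1, ETS and YY1 near their start, and the promoter windows of the members (250 bases before to 50 after the start, RefSeq, GRCm38.p6) were searched for 1 short form of each on both strands. All 84 members matched a RefSeq gene and 69 had a window. The NRF1 letters GCATGCGC were in 10 of the 69 (14.5%, against 3.05% of 27025 genes), the YY1 letters AAGATGGC in 11 (15.9%, against 3.19%), and the ETS letters CCGGAAGT in 5 (7.25%, against 4.31%). At least 1 of the 3 was in 25 members (36.2%, against 9.91% of all genes). A match is a description of letters and not a bound site. The 250 bases before the start are shown for Atp5g2 and Atp5l, which were among the members with the largest rise in both SM gates, and for Cox8a, which differed most between CD4 and CD8 cells. All 3 lie on the minus strand and are written 5′ to 3′ along the gene, at chr15:102671048-102671297 for Atp5g2, chr9:44920743-44920992 for Atp5l and chr19:7217617-7217866 for Cox8a, with a match to a motif in capitals. These stretches lie outside the annotated gene, next to its first base. The capitals in Atp5g2 are overlapping NRF1 matches on both strands, those in Atp5l are 1 NRF1 match, and Cox8a has none of the 3 motifs in this stretch.
Atp5g2: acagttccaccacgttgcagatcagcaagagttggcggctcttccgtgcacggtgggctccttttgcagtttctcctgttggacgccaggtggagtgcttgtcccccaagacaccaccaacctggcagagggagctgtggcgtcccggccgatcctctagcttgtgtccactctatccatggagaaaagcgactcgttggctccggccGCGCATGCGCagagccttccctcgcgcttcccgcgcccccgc
Atp5l: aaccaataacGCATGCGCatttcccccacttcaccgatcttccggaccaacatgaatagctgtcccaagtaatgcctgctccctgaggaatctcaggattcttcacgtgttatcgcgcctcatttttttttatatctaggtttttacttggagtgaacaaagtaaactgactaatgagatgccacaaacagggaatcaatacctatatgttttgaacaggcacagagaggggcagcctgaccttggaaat
Cox8a: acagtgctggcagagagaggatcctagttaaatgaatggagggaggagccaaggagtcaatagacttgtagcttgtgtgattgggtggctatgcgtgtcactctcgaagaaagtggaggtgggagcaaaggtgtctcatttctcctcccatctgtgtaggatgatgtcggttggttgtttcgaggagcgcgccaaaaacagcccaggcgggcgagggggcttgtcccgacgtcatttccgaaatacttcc

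Before any comparison, 3 mice of the third experiment have to be named, because WT mouse 5, OT-I mouse 2 and OT-II mouse 2 stood apart from the others in these genes. In DP1, 42 of 75 members (56.0%) were outside the range of the other 14 mice in all 3 of them, 10 above and 32 below, against 29.6% of 5994 genes. In CD4 SM cells it was 46 of 75 members (61.3%), 17 above and 29 below, against 34.1% of 5592 genes. The genes set beside the members had a mean above 20 CPM and were not matched to the members in level. The larger share among members is therefore not read as particular to them. Members of a single complex moved both ways, and the 3 mice moved alike. In complex IV, Cox7a2l was at 228, 395 and 309 CPM in the DP1 cells of WT mouse 5, OT-I mouse 2 and OT-II mouse 2 and between 531 and 959 CPM in the other 14, whereas Cox7c was at 1219, 1347 and 1429 CPM, against 559 to 834 CPM. In complex V, Atp5f1 and Atp5k were picked after their values had been seen. Atp5f1, the b subunit, was at 243, 220 and 245 CPM, against 466 to 678 CPM, and Atp5k, the e subunit, at 1152, 1033 and 873 CPM, against 294 to 505 CPM. Across the 75 members, the log2 difference of WT mouse 5 from WT mouse 4 had a correlation of 0.949 with that of OT-I mouse 2 from OT-I mouse 1, of 0.943 with the same difference in OT-II mice, and of -0.0113 with the difference between WT mice 3 and 2. Genes are not independent replicates, and these values share WT mice 4 and 5. Counts of called members are given below with and without the 3 mice. Where a count with mice left out has no share of all genes beside it, it is not read against all genes.

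**Figure D1:**
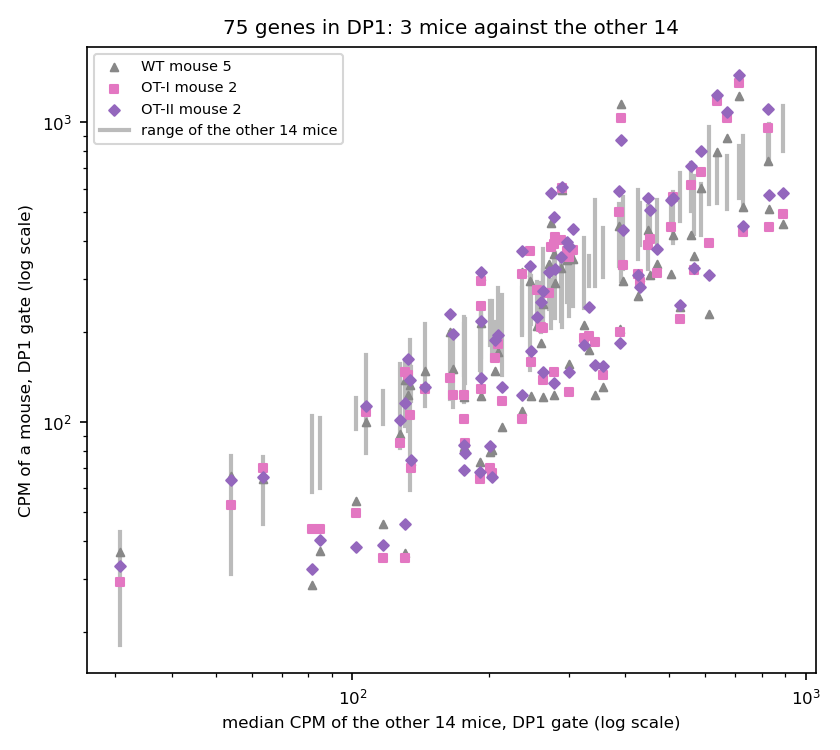
Levels of 75 members in DP1 cells (CPM, log scale) in WT mouse 5, OT-I mouse 2 and OT-II mouse 2 (points), plotted against the median of the other 14 mice (CPM, log scale), whose range is the gray bar. For 42 members all 3 points lie outside the bar, 10 above it and 32 below.

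The first question was how much of the RNA the members took at each stage. In WT mice (mean ± SD, n = 5) the share of RNA UMIs was 2.48% ± 0.190 in DN, 2.30% ± 0.154 in DP1, 2.34% ± 0.157 in DP2, 2.18% ± 0.089 in CD4 SM, 1.99% ± 0.053 in CD4 mature, 2.37% ± 0.134 in CD8 SM and 2.21% ± 0.066 in CD8 mature cells. CD4 mature cells were lowest in this share of all RNA. Their shares in WT mice 1 to 5 were 2.00, 1.95, 2.07, 1.93 and 2.00%, and those of CD8 mature cells in the same mice were 2.21, 2.14, 2.31, 2.19 and 2.18%, so these gates did not overlap. In DP1 the 5 mice were at 2.38, 2.29, 2.47, 2.31 and 2.06%, and WT mouse 5 was lowest there and in DN, DP2 and CD8 SM. The ranges of DN, DP1, DP2 and CD8 SM overlapped. In DN cells 5 gamma-delta T markers summed to 529 to 1888 CPM (median 1127, against 108 in DP1) and 7 myeloid markers to at most 515 CPM (median 167), and their part in the DN share was not tested. In summed samples, fewer cells of a type and less RNA per cell cannot be told apart.

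**Figure D2:**
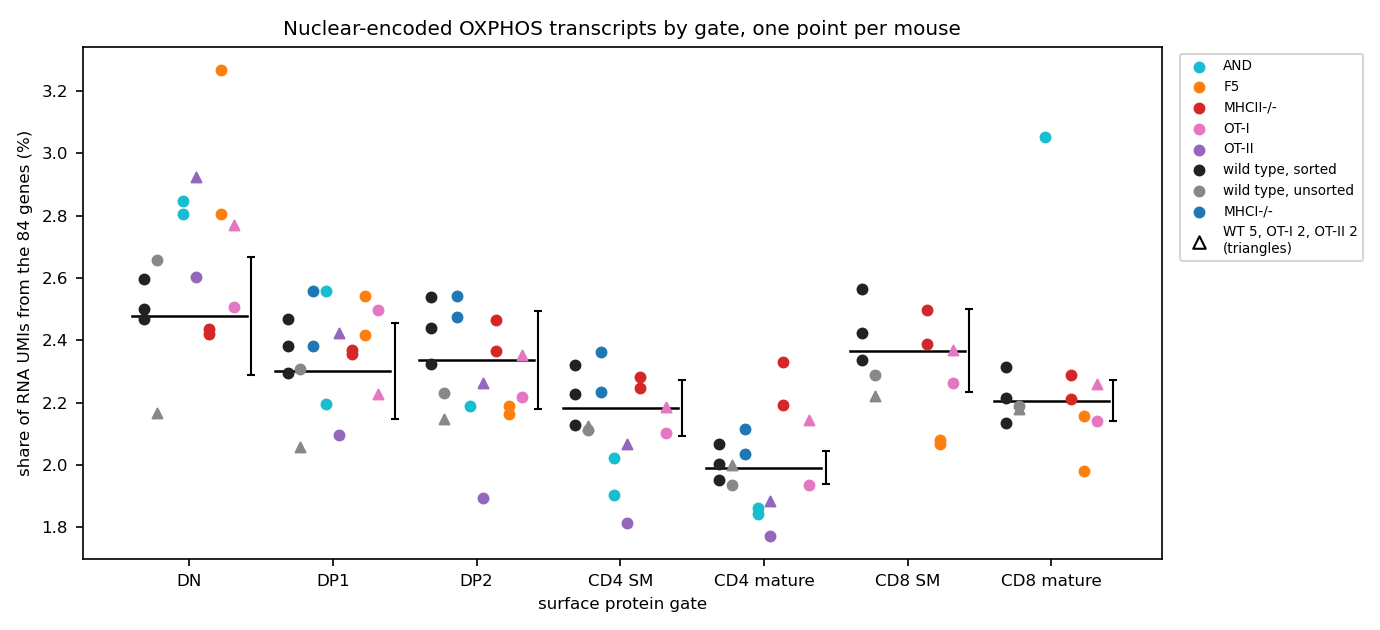
Percent of RNA UMIs from the 84 members in each protein gate, with a point for each mouse, colors for genotypes, triangles for the 3 mice that stood apart, and the WT mean (line) with its SD (bar). CD4 mature cells of WT mice (1.99% ± 0.053) lie below every WT CD8 mature value, whereas the DP1 and DP2 points overlap.

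Among genotypes, each with 2 mice, none had both of its mice outside the WT range in DP1 or DP2. In DP1 the mice with altered receptors or MHC ran from 2.10% (OT-II mouse 1) to 2.56% (AND mouse 1). In DP2 they ran from 1.89% in OT-II mouse 1 to 2.54% in MHCI-/- mouse 1. In CD4 SM cells both AND mice (1.91 and 2.02%) and both OT-II mice (1.81 and 2.07%) were below the lowest WT mouse (2.11%), and both MHCI-/- mice (2.36 and 2.24%) were above the WT mean. CD8 SM cells of both F5 mice (2.07 and 2.08%) were below those of every WT mouse, those of the OT-I mice, also unsorted, were within the WT range at 2.26 and 2.37%, and those of the MHCII-/- mice were at 2.39 and 2.50%. DN cells of F5 mouse 2 had the highest share in a DN gate, 3.27%, and the few CD8 mature cells of AND mouse 1, 50 cells with a median of 8369 UMIs, stood at 3.05%. The sort went with these genotypes, since the AND, F5, OT-I and OT-II mice were unsorted and the MHC-deficient mice sorted.

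Within mice, the share of all RNA fell from DP2 to CD4 SM cells and again in late maturation of both lineages. The first of these falls turned to a rise when ribosomal and mitochondrially encoded RNA was left out of the total. The mean log2 ratio of the shares was -0.11 ± 0.051 (SD) for CD4 SM against DP2, lower in 10 of 10 mice, -0.12 ± 0.043 for CD4 mature against CD4 SM, lower in 11 of 11 mice, and -0.081 ± 0.058 for CD8 mature against CD8 SM, higher in 1 of 11 mice. For CD8 SM against DP2 it was 0.0029 ± 0.039, higher in 8 of 11 mice. CD4 steps were taken in WT and CD4-fated mice, and CD8 steps in WT and CD8-fated mice. In MHCII-/- mouse 2, outside the CD4 set, the share was 2.25% in CD4 SM and 2.33% in CD4 mature cells. In MHCII-/- mouse 1 and both OT-I mice it was lower in CD4 mature cells. The share was also taken of UMIs outside mitochondrially encoded and ribosomal protein genes, a value not given here for the CD8 mature step. The CD4 SM step then turned to 0.075, the CD8 SM step came to 0.17, and the CD4 mature step to -0.039. Ribosomal protein genes moved with these steps, since 80 of 86 tested were called higher in CD4 SM than in DP2 (median log2 change 0.79), and 80 of 85 in CD8 SM (0.70).

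By complex, the members were summed in DP1 and DP2 of WT mice. Complex V went from 7018 ± 495 to 7494 ± 563 CPM (SD, n = 5), complex I from 7510 ± 679 to 7618 ± 678 CPM, complex II from 462 ± 53.6 to 453 ± 58.1 CPM, complex III from 2447 ± 104 to 2385 ± 155 CPM and complex IV from 5588 ± 294 to 5418 ± 224 CPM. These SDs are between mice, and the step of the sums within mice was not tested. In CD4 mature cells all 5 complexes had their lowest WT mean, at 6484 ± 225 CPM for complex V, 6257 ± 245 for complex I, 371 ± 36.4 for complex II, 2002 ± 110 for complex III and 4802 ± 193 for complex IV. These CPM are of all RNA UMIs, and sums by complex outside ribosomal and mitochondrially encoded RNA are not given. The ratio of the members to the mitochondrially encoded subunits was between 0.401 ± 0.054 in DP1 and 0.458 ± 0.084 in DN cells, and these ratios overlapped between gates.

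The DP2 gate holds DP cells that have received a TCR signal, and DP2 against DP1 was compared within 16 mice (AND mouse 2 had too few DP2 cells). Members of all complexes were called, in both directions in complexes I, II, III and V and only lower in complex IV, with Ndufa4 counted in complex I. Of 76 members tested, 11 rose and 18 fell (edgeR's quasi-likelihood test with the mouse as a block, Benjamini-Hochberg adjusted p under 0.05 over all genes), whereas 41.1% of all 8328 genes were called (20.7% higher and 20.4% lower). The median member changed by -0.016 on the log2 scale and the median gene by -0.0068. The balance of rises and falls depended on which cells and mice entered. With the cells that held a cycling-marker UMI also taken out it was 24 higher and 12 lower, with all RNA classes kept in the gates 3 and 64, in WT mice alone 16 and 7, in sorted mice alone 30 and 10, and in unsorted mice alone 3 and 17. With thresholds raised by 0.25 it was 21 and 14, and without the 3 mice that stood apart 9 and 19. Over all genes the calls stayed near even, with 21.7% of genes higher and 20.8% lower without the cycling-marker cells, 28.4 and 27.9% with all RNA classes kept, 13.9 and 14.5% in WT mice alone, 22.1 and 21.1% in sorted mice alone, 10 and 9.95% in unsorted mice alone, 22.7 and 21.6% with raised thresholds, and 19.3 and 18.8% without the 3 mice. The 6 cycling markers were themselves lower in DP2 (6 of 6, median log2 change -1.43). Of the called members named below, Atp5g3, Atp5e, Ndufa5, Ndufa12, Ndufa4 and Sdhb stood below 0 with all RNA classes kept, and Sdhb also in unsorted mice alone (-0.014).

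ATP synthase held the largest rise. Atp5g1 had a lowest, median and highest level of 122, 241 and 307 CPM in DP1 and 193, 337 and 419 CPM in DP2, with a log2 fold change of 0.50 ± 0.058 (SE, edgeR adjusted p = 1.1e-07). Although the ranges overlapped, all 16 mice were higher in DP2 than in their own DP1. In WT mice 1 to 5, Atp5g1 was at 243, 240, 257, 232 and 122 CPM in DP1 and at 399, 381, 419, 323 and 193 CPM in DP2, and WT mouse 5 was lowest in both gates. Without cells that held a cycling-marker UMI the change was 0.67. Atp5g3 rose by 0.23 ± 0.051 (edgeR adjusted p = 0.00066), higher in 13 of 16 mice, from a median of 380 to 440 CPM, and was at -0.0026 with all RNA classes kept. The third gene for the c subunit, Atp5g2, changed by -0.02 (edgeR adjusted p = 0.82). Atp5e rose by 0.20, while Atp5h, the d subunit of the stalk, fell by 0.25 on the log2 scale, in 15 of 16 mice.

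In complex III the members went apart. Uqcrq, a small subunit near the ubiquinone site, rose from 223, 285 and 413 CPM (lowest, median and highest) to 273, 421 and 499 CPM, a log2 fold change of 0.44 ± 0.053 (edgeR adjusted p = 2.1e-07), higher in 16 of 16 mice. Uqcrh went the other way, from 741, 828 and 1101 CPM to 505, 675 and 912 CPM (log2 fold change -0.30 ± 0.044, edgeR adjusted p = 4.3e-06), higher in 2 of 16 mice. Both held without the 3 mice that stood apart (0.43 and -0.31) and without cells that held a cycling-marker UMI (0.53 and -0.33).

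In complex I, the accessory subunits Ndufa1 and Ndufa5 rose by 0.29 and 0.23 on the log2 scale, in 14 and 13 of 16 mice. Ndufa5 was at -0.041 with all RNA classes kept. Ndufa6, another accessory subunit, fell from 231, 288 and 483 CPM to 180, 203 and 373 CPM (log2 fold change -0.41 ± 0.050, edgeR adjusted p = 3.3e-07), lower in 15 of 16 mice. Ndufs4 fell by 0.17 (edgeR adjusted p = 0.0028), and Ndufa12 rose by 0.20 (edgeR adjusted p = 0.019) but was lower, at -0.27 (edgeR adjusted p = 0.0015), with all RNA classes kept. Ndufa4 likewise rose by 0.15 and was at -0.20 with all RNA classes kept.

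Cox7a2l, counted in complex IV, fell from 228, 575 and 959 CPM to 197, 407 and 778 CPM (log2 fold change -0.42 ± 0.055, edgeR adjusted p = 9.1e-07), lower in 15 of 16 mice. Its lowest levels were those of the 3 mice that stood apart, and without them the log2 fold change was -0.46. The testis isoform Cox6b2 fell by 0.51 from a median of 19.1 to 10.4 CPM, while the common Cox6b1 changed by 0.03 (edgeR adjusted p = 0.55). Cox4i1, Cox7a2 and Cox7c fell by 0.12, 0.14 and 0.17, and Cox6a1 (-0.03), Cox6c (0.07) and Cox8a (-0.07) did not pass the test. No member counted in complex IV rose, whereas Ndufa4, which rose as given above, was counted by its name in complex I. In complex II, Sdhb rose by 0.14 (edgeR adjusted p = 0.044, and 0.086 without the 3 mice that stood apart), Sdhd fell by 0.21 (edgeR adjusted p = 0.0026), and Sdha and Sdhc did not pass the test. Every range named at this step overlapped between the gates.

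**Figure D3:**
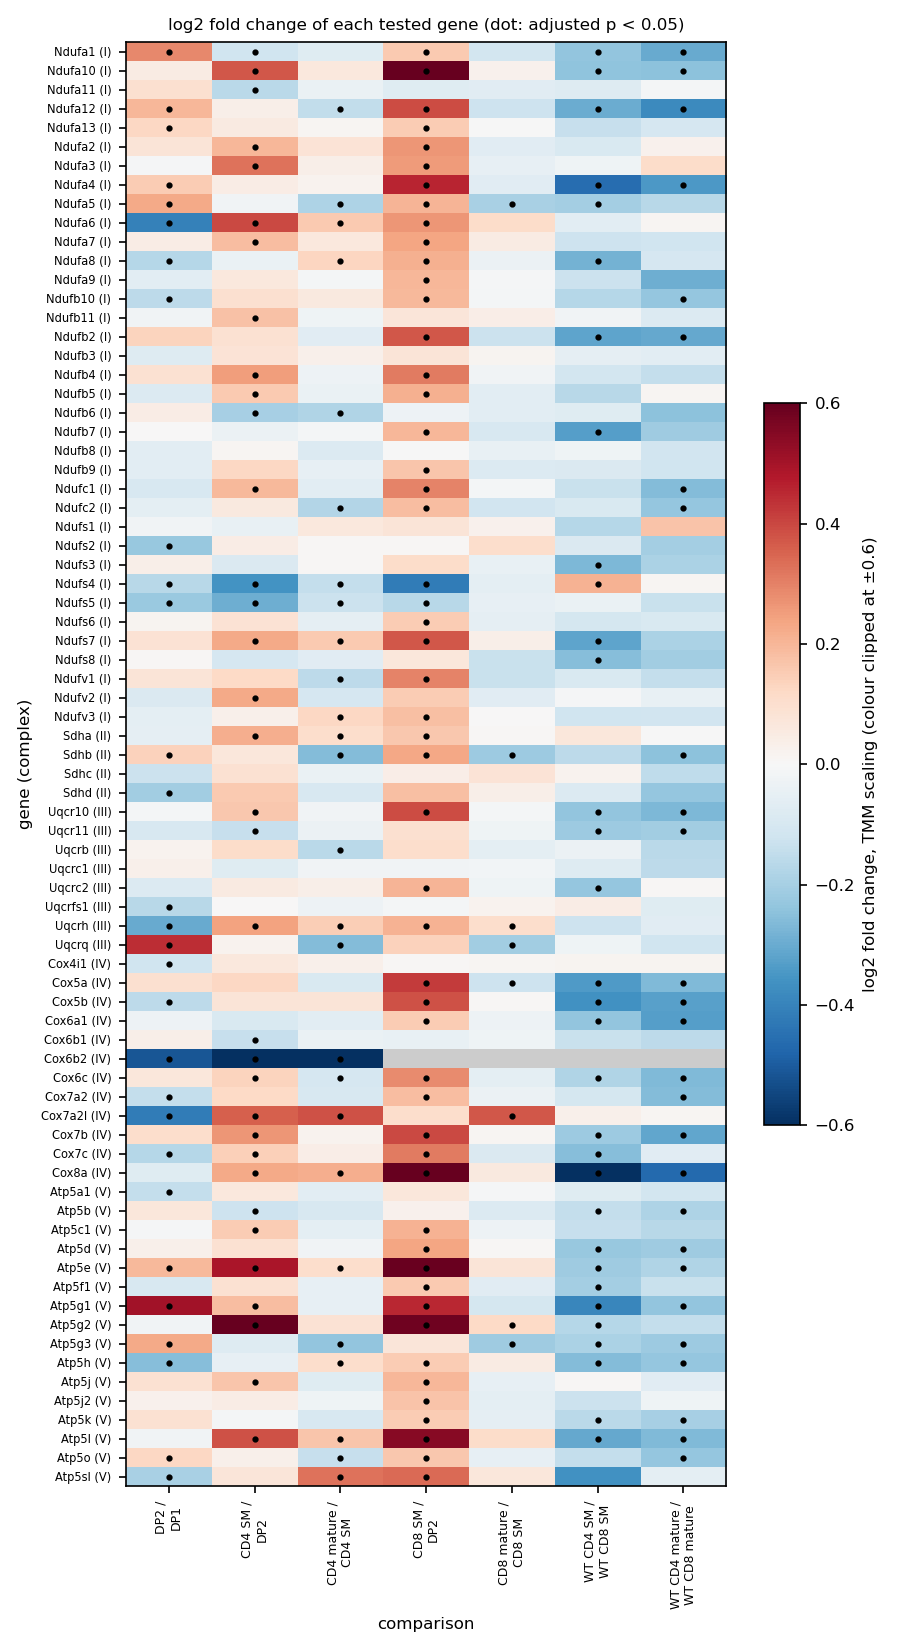
Log2 fold change (color, clipped at 0.6 either way) of each tested member in each stage step and in the CD4 against CD8 comparisons of WT mice, from the edgeR fit with TMM scaling, with a dot where the adjusted p was under 0.05 and gray where a gene was not tested. Atp5g1 and Uqcrq are high in the DP2 column (0.50 and 0.44) and Cox7a2l is low there (-0.42) and high in both mature columns (0.38 and 0.37).

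The DP step differed between sorted and unsorted mice. In the 7 sorted mice the log2 ratio of the shares, DP2 to DP1, was 0.029 ± 0.025 (SD), higher in 6 of 7, and in the 9 unsorted mice -0.10 ± 0.11, higher in 2 of 9 (WT mouse 5 and OT-I mouse 2). Without the 3 mice that stood apart the unsorted mean was -0.16 ± 0.063, higher in 0 of 6. Within the first 2 experiments, which hold all sorted mice, the unsorted mice were AND mouse 1, F5 mouse 1 and F5 mouse 2, at -0.22, -0.16 and -0.22. The difference of the step between sorted and unsorted mice was called for 12 of 76 members, each with the higher step in sorted mice, against 6.83% of 8328 genes (edgeR interaction test). The median difference was 0.17 for members and -0.013 for all genes. Ndufa12 (0.40 ± 0.11, SE, edgeR adjusted p = 0.019), Atp5g1 (0.40 ± 0.081, edgeR adjusted p = 0.0020), Atp5e (0.36) and Ndufa10 (0.35) led. Without the 3 mice that stood apart, all unsorted, 24 of 76 members were called, against 8.24% of genes. With a step of its own for each experiment, a fit chosen after seeing the data that rests on 7 sorted and 3 unsorted mice, 6 of 76 were called, each higher in sorted mice, against 2.26% of genes. Uqcrq (0.55), Cox6c (0.49) and Atp5e (0.48) were called in both fits, and Atp5g1 and Ndufa12 in the first only. The sort keeps TCRb+ cells, and within an experiment it cannot be told apart from genotype.

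CD4 SM cells were next compared with DP2 within 10 WT and CD4-fated mice. Here the scaling moved all genes and the members with them. With TMM scaling 25 of 76 members were called higher and 9 lower, and with plain library size 5 higher and 43 lower, of which 5 and 9 were shared by both. Of all 8907 genes, 45.3% were called with TMM (22.2% higher and 23.0% lower), and with library size 12.7% were higher and 50.4% lower. Plain library size moved the median of all genes to -0.25, against -0.14 for members, and with TMM the medians were -0.026 for all genes and 0.080 for members. Without the 3 mice that stood apart, 24 rose and 9 fell with TMM. The cycling markers rose at this step (6 of 6, median log2 change 1.5), and without cells that held a cycling-marker UMI 24 members rose and 6 fell, against 20.9% of genes higher and 21.4% lower. By complex with TMM, 11 rose and 5 fell in complex I, 1 rose in complex II, 2 rose and 1 fell in complex III, 5 rose and 2 fell in complex IV and 6 rose and 1 fell in complex V.

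Atp5g2 led here, whereas Atp5g1 had led at the DP step. Atp5g2 was at 280, 382 and 432 CPM (lowest, median and highest) in DP2 and at 310, 518 and 589 CPM in CD4 SM, with a log2 fold change of 0.61 ± 0.047 (edgeR adjusted p = 2.5e-09), higher in 10 of 10 mice. It also rose with library size, by 0.39. Atp5g1 changed by 0.18 with TMM and by -0.04 with library size, and Atp5g3 by -0.08 (edgeR adjusted p = 0.24) and by -0.30. Atp5e rose by 0.49 ± 0.046 in 10 of 10 mice, from a median of 837 to 929 CPM, and Atp5l, subunit g of the membrane part, by 0.38 in 10 of 10 mice. Ndufa6, which had fallen at the DP step, rose by 0.40, and Ndufa10 by 0.37. These 5 rose under both scalings. Cox7a2l rose by 0.36 with TMM (edgeR adjusted p = 0.00022) but did not pass with library size (0.14), and Cox8a, the small subunit VIIIa of complex IV, rose by 0.23 with TMM and stood at 0.01 with library size.

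The falls at this step held under both scalings. Ndufs4 was at 147, 269 and 329 CPM in DP2 and at 98.0, 193 and 206 CPM in CD4 SM (log2 fold change -0.36 ± 0.049, edgeR adjusted p = 7.1e-06), lower in 10 of 10 mice. Ndufs5 fell from 190, 236 and 265 CPM to 135, 165 and 177 CPM (log2 fold change -0.29 ± 0.047, edgeR adjusted p = 4.8e-05), and its ranges did not overlap. Nor did those of Cox6b2, at 7.3 to 21.3 CPM in DP2 and 3.8 to 7.0 CPM in CD4 SM (log2 fold change -1.16 ± 0.18, edgeR adjusted p = 2.2e-05). Ndufb6 and Ndufa11, in the membrane arm of complex I, fell by 0.20 and 0.16. In the test of this step between sorted and unsorted mice 1 member was called, Atp5g1, with the lower step in sorted mice (-0.37 ± 0.096, edgeR adjusted p = 0.032, against 3.75% of genes), and 0 members were called by edgeR without the 3 mice that stood apart (1 higher and 5 lower at an unadjusted p under 0.05). With a step for each experiment, where only WT mouse 1 and AND mouse 1 give the contrast, 0 were called by edgeR, against 0.157% of genes (3 higher and 0 lower at an unadjusted p under 0.05).

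CD8 SM cells were compared with DP2 within 11 WT and CD8-fated mice, and more members were called higher here than in any other step. With TMM scaling 50 of 75 were higher and 2 lower, and with plain library size 12 higher and 15 lower, 12 and 2 being shared by both. Of 7611 genes, 47.5% were called with TMM (24.3% higher and 23.2% lower), and with library size 12.5% were higher and 47.2% lower. The median member changed by 0.18 and the median gene by -0.018 with TMM, and by -0.041 and -0.24 with library size. Without the 3 mice that stood apart 50 rose and 2 fell with TMM, and without cells that held a cycling-marker UMI 35 rose and 2 fell, against 20.3% of genes higher and 18.7% lower. Of 3 cycling markers tested, 2 rose at this step (median log2 change 0.78). By complex, 24 of 36 rose in complex I, 2 of 4 in complex II, 3 of 8 in complex III, 8 of 11 in complex IV and 13 of 16 in complex V, and the 2 that fell were both in complex I. The CD4 SM and CD8 SM steps share DP2 samples of WT mice, so they are set side by side and not compared.

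Cox8a rose most, from 483, 543 and 664 CPM in DP2 to 539, 769 and 854 CPM in CD8 SM (log2 fold change 0.66 ± 0.075, edgeR adjusted p = 3.3e-07), higher in 11 of 11 mice. Ndufa10, an accessory subunit of complex I, rose from 93.0, 111 and 149 CPM to 130, 152 and 192 CPM (log2 fold change 0.62 ± 0.072, edgeR adjusted p = 4.9e-07), higher in 11 of 11 mice. Both had ranges that overlapped between the gates. Atp5e rose by 0.59 in 11 of 11 mice, Atp5g2 by 0.58, Atp5l by 0.54, Ndufa4 by 0.46 and Atp5g1 by 0.45, each under both scalings. Atp5g3 changed by 0.07 (edgeR adjusted p = 0.34).

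Ndufs4 fell again, from 142, 271 and 329 CPM to 108, 167 and 203 CPM (log2 fold change -0.42 ± 0.067, edgeR adjusted p = 3.0e-05), lower in 11 of 11 mice, and Ndufs5 fell by 0.17. The step was not called different between sorted and unsorted mice for any member (0 of 75 by edgeR against 0.644% of genes, and 12 higher in sorted mice and 0 lower at an unadjusted p under 0.05). In complex II Sdhb and Sdha passed the test, at 0.23 and 0.16 with TMM and 0.01 and -0.06 with library size. Cox7a2l (0.10, edgeR adjusted p = 0.45) and Cox4i1 (0.01, edgeR adjusted p = 0.94) did not pass the test with TMM.

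**Figure D4:**
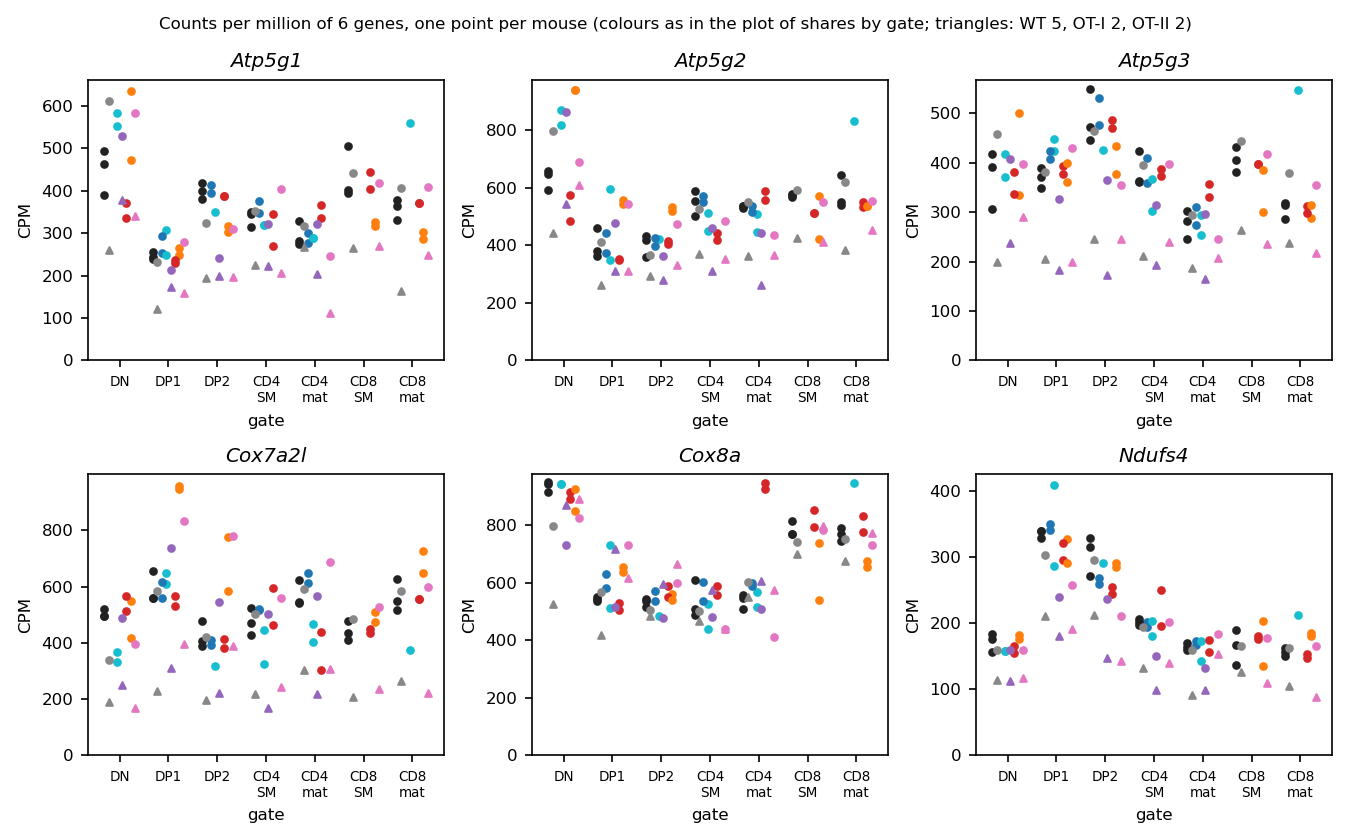
Levels (CPM) of the c-subunit genes Atp5g1, Atp5g2 and Atp5g3 and of Cox7a2l, Cox8a and Ndufs4 over the 7 gates, with a point for each mouse, colors for genotypes as in the plot of shares and triangles for the 3 mice that stood apart. Atp5g1 is higher in DP2 than in DP1 in all 16 mice with both gates, and Cox8a of WT mice is at 698 to 816 CPM in CD8 SM cells and at 465 to 609 CPM in CD4 SM cells.

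Late maturation, mature against SM within 11 mice (WT mice and those of the same fate), was compared for each lineage. In CD4 cells 12 of 76 members were higher and 14 lower with TMM, and 2 higher and 53 lower with plain library size, which moved the median of all genes to -0.13, while 30% of 9110 genes were called (16.2% higher and 13.8% lower) with TMM and, with library size, 8.91% were higher and 34.1% lower. The median member was at -0.033 with TMM and at -0.16 with library size. Cox7a2l rose in 11 of 11 mice, from 167, 470 and 522 CPM to 217, 546 and 649 CPM (log2 fold change 0.38 ± 0.036, edgeR adjusted p = 1.0e-09). Cox8a rose by 0.22 ± 0.038 in 10 of 11 mice, from a median of 508 to 558 CPM. These 2 rose under both scalings, whereas Atp5sl, Atp5l and Ndufs7 rose by 0.32, 0.17 and 0.16 with TMM only.

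Of the falls in CD4 maturation, Atp5g3 went from 193, 361 and 422 CPM to 165, 282 and 311 CPM (log2 fold change -0.24 ± 0.038, edgeR adjusted p = 1.1e-05), lower in 11 of 11 mice. Uqcrq, which had risen at the DP step, fell by 0.26 in 11 of 11 mice, Sdhb by 0.26, Ndufa5 by 0.19 in 11 of 11 mice and Cox6b2 by 0.65 (edgeR adjusted p = 0.043). Cox6b2 did not pass without the 3 mice that stood apart (-0.62, edgeR adjusted p = 0.07). Sdha rose by 0.11 with TMM (edgeR adjusted p = 0.047), and Sdhc and Sdhd did not pass the test. Without the 3 mice that stood apart, 12 members rose and 13 fell, and without cells that held a cycling-marker UMI 11 rose and 22 fell, against 15.6% of genes higher and 15.7% lower.

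In CD8 cells 3 of 75 members were higher and 5 lower with TMM, and 1 higher and 28 lower with library size, against 13.9% of 7571 genes (8.29% higher and 5.57% lower) with TMM. With library size 5.46% of genes were higher and 12.6% lower. The cycling markers rose at this step (4 of 4 tested, median log2 change 0.68), and without cells that held a cycling-marker UMI 1 member was higher and 7 lower, against 7.77% of genes higher and 6.21% lower. Cox7a2l rose from 207, 449 and 529 CPM to 220, 555 and 727 CPM (log2 fold change 0.37 ± 0.045, edgeR adjusted p = 1.4e-08) in 10 of 11 mice. Atp5g3 fell from 235, 396 and 443 CPM to 216, 313 and 380 CPM (log2 fold change -0.21 ± 0.042, edgeR adjusted p = 0.00013), lower in 10 of 11 mice. Sdhb (-0.22), Uqcrq (-0.21), Ndufa5 (-0.20) and Cox5a (-0.12) also fell, and with TMM only, Atp5g2 and Uqcrh rose by 0.12 and 0.11. Without the 3 mice that stood apart 3 rose and 5 fell, and leaving out MHCII-/- mouse 1 or 2 left 4 called each. The test of whether maturation differed between CD4 and CD8 cells of WT mice called 0 of 75 members by edgeR, against 1.35% of genes (2 higher and 1 lower in CD4 at an unadjusted p under 0.05). The test of the maturation step between sorted and unsorted mice called 0 members by edgeR in CD4 cells (1.32% of genes, and 2 higher and 2 lower at an unadjusted p under 0.05) and 0 in CD8 cells (1.86% of genes, and 3 higher and 2 lower).

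CD4 and CD8 cells of the same WT mice were compared with the mouse as a block (n = 5). More members were called lower than higher in CD4 cells under both scalings. In mature cells the log2 ratio of the shares, CD4 to CD8, was -0.15 ± 0.023 (SD), lower in 5 of 5 mice, and in SM cells, a comparison chosen after seeing the data, -0.12 ± 0.032, lower in 5 of 5. In mature cells 27 of 75 members were called lower and 0 higher with TMM, and 22 lower and 0 higher with plain library size, against 17% of 7667 genes (8.28% higher and 8.67% lower) with TMM and 8.84% higher and 7.73% lower with library size. At an unadjusted p under 0.05, edgeR gave 38 lower and 0 higher, and DESeq2 called 16 lower and 0 higher. The 27 were spread over the complexes, with 8 in complex I, 1 in complex II, 2 in complex III, 7 in complex IV and 9 in complex V. The median member was at -0.16 and the median gene at -0.0031. Without WT mouse 5 the count was 28 and without WT mouse 2 or WT mouse 3 it was 16 or 17, all lower. In these WT mice 23.6% of CD4 mature and 33.9% of CD8 mature cells held a cycling-marker UMI, lower in CD4 in 5 of 5 mice, at a median depth of 5165 and 6722 UMIs per cell and not thinned to one depth, while the 6 markers by edgeR had a median log2 difference of 0.34 and 0 of 6 were called. WT mouse 5 had the highest shares of such cells, 66.0 and 73.1%. Taking such cells out gave 14 members lower and 0 higher, against 6.94% of genes lower and 7.78% higher, and a log2 ratio of the shares of -0.11. Regulatory T (Treg) cells were not taken out of the gates. Their markers Foxp3 and Il2ra stood at 31.4 and 43.9 CPM in CD4 mature cells of WT mice and at 2.21 and 0.958 CPM in CD8 mature cells. The part of these cells in the difference was not tested.

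Cox8a led in both stages. In mature CD4 cells of WT mice 1 to 5 it was at 558, 507, 545, 603 and 549 CPM and in their mature CD8 cells at 745, 768, 789, 751 and 675 CPM, with no overlap (log2 fold change -0.46 ± 0.052, edgeR adjusted p = 4.3e-08). In SM cells the 5 mice stood at 508, 486, 609, 501 and 465 CPM in CD4 and at 769, 816, 768, 741 and 698 CPM in CD8, again with no overlap (log2 fold change -0.62 ± 0.057, edgeR adjusted p = 7.3e-10). Ndufa4 was lower by 0.35 and 0.46 on the log2 scale in mature and SM CD4 cells, and Cox5b by 0.33 and 0.36. In mature cells Ndufa12 and Cox6a1 were lower in CD4 by 0.38 and 0.33, and in SM cells Atp5g1 and Cox5a by 0.39 and 0.34. Cox4i1 and Cox7a2l did not pass the test in either stage, at 0.02 and 0.01 in mature and 0.02 and 0.03 in SM cells.

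In SM cells 1 of 75 members was called higher in CD4 and 31 lower, and 1 and 17 with library size, against 21.7% of 8254 genes (9.75% higher and 12% lower) with TMM and 12.9% higher and 8.90% lower with library size. The 1 was Ndufs4, higher in 5 of 5 mice by 0.21 (edgeR adjusted p = 0.034). Without WT mouse 5, 1 was higher and 29 were lower, without WT mouse 4 it was 1 and 17, and without WT mouse 2 it was 0 and 20. The 6 cycling markers tested were higher in CD4 SM cells (6 of 6 called, median log2 difference 1.60). By cells, 25.3% of CD4 SM and 31.5% of CD8 SM cells held a cycling-marker UMI, at a median depth of 4794 and 5643 UMIs. This share was higher in CD4 only in WT mouse 3 (25.1 against 23.2%). Taking out cells that held a cycling-marker UMI gave 1 higher and 22 lower in SM cells, against 8.89% of genes higher and 10.2% lower. Of the 13 mitochondrially encoded subunits, 7 were called lower in CD4 mature cells and 9 in CD4 SM cells with TMM, and none higher.

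Fate by genotype was compared between 6 CD4-fated and 6 CD8-fated mice, with the genotype family as a covariate (the 2 TCRs with no Rag1, the 2 OT TCRs, or the 2 MHC deficiencies), and in the SM and mature stages CD4 cells of the former were set against CD8 cells of the latter. In DP1 0 of 76 members were called by edgeR (0% of 8326 genes, 0 members at an unadjusted p under 0.05, and 0 by DESeq2), and in DP2, with 11 mice, also 0 (0.0631% of 7921 genes, with 0.0126% higher, and 0 members at an unadjusted p under 0.05, and 0 by DESeq2). Among SM cells 1 member was called, Ndufa10, lower in CD4-fated mice (log2 fold change -0.48 ± 0.13, edgeR adjusted p = 0.041), against 7.30% of 8880 genes (4.1% higher and 3.20% lower). It ran from 99.0 to 124 CPM in CD4-fated mice and from 130 to 192 CPM in CD8-fated mice, with no overlap. Cox8a was at -0.47 in this comparison (edgeR adjusted p = 0.060) and did not pass.

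In mature cells Cox5b (log2 fold change -0.40 ± 0.11, edgeR adjusted p = 0.045) and Ndufa10 (-0.37 ± 0.11, edgeR adjusted p = 0.046) were called lower in CD4-fated mice, against 7.76% of 9018 genes (4.32% higher and 3.44% lower). Cox5b ran from 239 to 322 CPM in CD4-fated and from 321 to 434 CPM in CD8-fated mice, and Ndufa10 from 103 to 130 CPM and from 130 to 165 CPM. The levels of these genes in the groups met or nearly met at their edges. All mitochondrially encoded subunits but mt-Atp8 had log2 fold changes above 0 in CD4-fated mice, in SM and in mature cells, and none was called. The median member was at -0.012, -0.067, -0.12 and -0.11 in DP1, DP2, SM and mature cells. The calls rested on single mice and settings. With mice of the same family and replicate number as a replicate block, 7 of 76 members were called in SM and 5 in mature cells, all lower in CD4-fated mice, against 6.90 and 5.13% of genes lower and 7.43 and 5.88% higher. In the AND and F5 family that number goes with the experiment, and in the other families it does not. Leaving out MHCI-/- mouse 1 or 2, MHCII-/- mouse 1 or 2, AND mouse 2, F5 mouse 2 or OT-II mouse 1 left 0 called in SM and in mature cells, as did leaving out OT-I mouse 2 in SM and AND mouse 1 in mature cells. Leaving out OT-II mouse 2 gave 3 in SM and 1 in mature cells, and leaving out F5 mouse 1 gave 2 and 1. Taking out cells that held a cycling-marker UMI left 0 in both, whereas leaving out OT-I mouse 2 and OT-II mouse 2 together gave 4 and 6 called members, all lower, against 6.48 and 5.57% of genes lower and 7.29 and 6.93% higher. In simulated counts of this size, 0% of genes with a log2 change of 0.25 were called in SM cells. With a change of 0.5 it was 7.58%, and with a change of 1 it was 74.2%. Of 8880 genes, 68 were changed by 0.25 and 66 by each of the larger changes, drawn at random and with no family effect. The rates therefore need not hold for the members.

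Other genes of mitochondrial energy metabolism were counted from lists chosen apart from the members, all with TMM. Counts with plain library size, which moved all genes down at the SM steps, are not given. As CPM, the mitochondrially encoded subunits of WT mice summed to 57931 ± 4800 in DP1 and 54917 ± 4019 in DP2 (SD, n = 5). In CD4 SM cells they summed to 51434 ± 3803 and in CD8 SM cells to 54094 ± 4115. The rises below are therefore relative to TMM scaling. At the DP step, 7 of 13 mitochondrially encoded subunits rose and 1 fell, and 11 of 43 assembly factors of the complexes rose and 6 fell, where 41.1% of all genes were called. Glycolysis genes moved with the step as well, with 9 of 17 higher and 2 lower (median log2 change 0.31), and of the tricarboxylic acid cycle genes 4 of 17 rose and 2 fell (-0.074). Mitochondrial ribosomal protein genes, 76 tested, had 12 higher and 12 lower.

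At the CD8 SM step, 10 of 13 mitochondrially encoded subunits rose and 1 fell, 12 of 41 assembly factors rose and 3 fell, 31 of 76 mitochondrial ribosomal protein genes rose and 1 fell, and 7 of 16 glycolysis genes rose and 1 fell, where 47.5% of all genes were called. At the CD4 SM step, 9 of 13 mitochondrially encoded subunits and 13 of 45 assembly factors rose, and 1 and 3 fell, whereas 6 of 12 regulators of mitochondrial genes fell and 1 rose, where 45.3% of all genes were called. In CD4 maturation 8 of 17 glycolysis genes fell and 1 rose (30% of all genes called). A list of 11 genes outside the rule held electron carriers, further subunits, Atpif1 and membrane carriers such as Slc25a5. Of these, 5 fell and 0 rose in CD8 maturation (13.9% of all genes called).

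Finally, the share was compared between cell classes named from their RNA, in WT mice. These classes were drawn from the same RNA and are given as a description. Cycling-like cells held the highest mean share of the classes seen in at least 3 WT mice, at 2.97 to 3.13% in WT mice 1 to 5, against 2.22, 2.09, 2.24, 2.12 and 2.03% in quiescent DP-like cells, and the values did not overlap. The ratio to quiescent DP-like cells was 1.44 for cycling-like cells (higher in 5 of 5 mice), 1.33 for DN-like cells (3 of 3), 1.18 for negative selection-like cells (5 of 5) and 1.08 for signaled DP-like cells (5 of 5). CD4 and CD8 SP-like cells were at 1.06 and 1.04 (4 of 4 each), and of UMIs outside mitochondrially encoded and ribosomal protein genes at log2 ratios of 0.24 and 0.36 in place of 0.078 and 0.063. Treg-like (0.941), interferon-like (0.913) and mature SP-like (0.905) cells were lower, with 1 of 5, 0 of 4 and 0 of 4 mice higher. The Treg-like value rested on WT mouse 5, without which the ratio was 0.985. Of UMIs outside mitochondrially encoded and ribosomal protein genes these 3 classes turned to log2 ratios of 0.14, 0.13 and 0.16.

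Over all 17 mice cycling-like cells held 3.15% ± 0.19 (SD). Among mice, the share over all kept cells ran from 2.27% in WT mouse 2 to 2.92% in F5 mouse 2, in which cells of the cycling clusters made up 3.06 and 17.3% of the kept cells. WT mouse 5, with 18.5% of cells in cycling clusters, stood at 2.53%, and OT-I mouse 1, with 9.99%, at 2.30%. A link between these values was not tested.

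**Figure D5:**
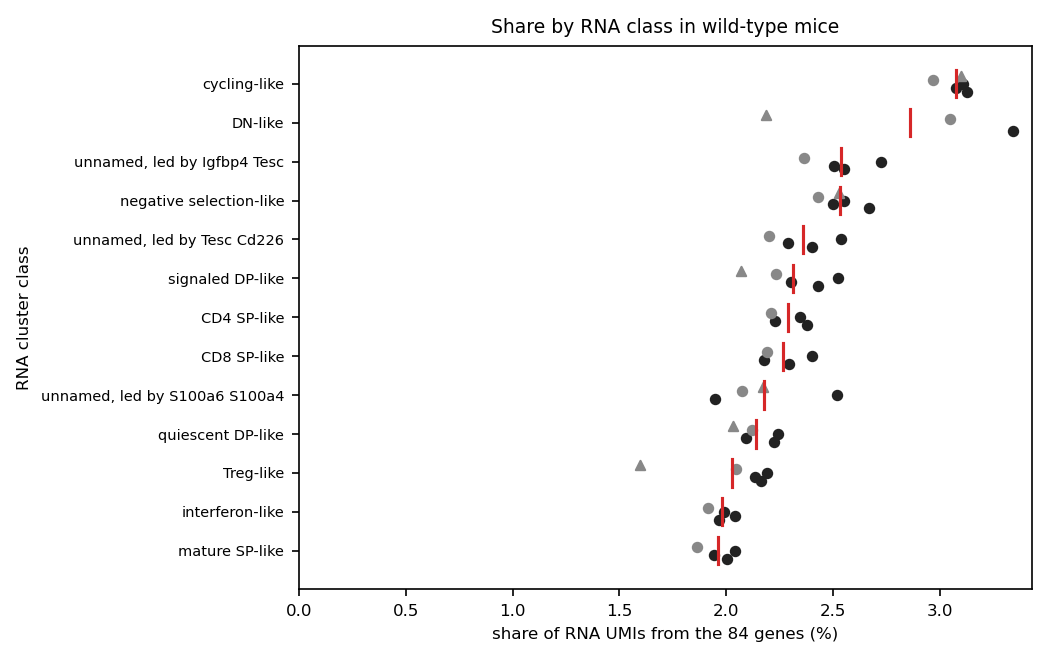
Percent of RNA UMIs from the 84 members in each RNA-defined cell class of WT mice, with a point for each mouse (black sorted, gray unsorted, triangle WT mouse 5) and the mean as a red line. Cycling-like cells of the 5 WT mice lie at 2.97 to 3.13%, above their quiescent DP-like cells at 2.03 to 2.24%.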

How the data were processed

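Thymocytes of 17 mice were profiled by 10x 3′ v3 CITE-seq on 19 lanes. The authors deposited, for each lane, a matrix of raw counts (UMIs per gene and antibody and per barcode). Their processing notes name Cell Ranger 3.1.0 and mm10 (GRCm38), and the matrix headers give software version 3.0.2 in 11 lanes and 3.1.0 in 8. Pooled matrices that repeat these lanes were not used. Depth was 9893333 to 43303999 RNA UMIs a lane and a median of 1492 to 7142 UMIs per kept cell.

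Of 85389 barcodes, 72054 passed the study's stated filters (at most 15% mitochondrial UMIs, at least 200 genes, 1000 to 10000 protein UMIs, at least 70 antibodies), 42.1 to 94.1% of a lane, and 2811 (3.90%) called as doublets against simulated doublets, at a rate of 0.8% per 1000 barcodes, were removed. RNA was clustered on 2000 variable genes, 30 components and 20 neighbors (Leiden, resolution 1) into 32 clusters, of which 6 were named cycling. Gates used the centered log ratio over 111 antibodies with Otsu thresholds in each experiment, where a valley had been planned but CD69 and CD127 showed none. Cells of the cycling, B, myeloid and mixed globin clusters (7468) were left out, and 17256 cells fell in no gate. Clustering was remade in double precision, for a result that repeats exactly, after test results of earlier versions had been seen, and the rule for cycling clusters was then restated by marker scores. In the earlier versions more members rose than fell from DP1 to DP2, and in the version kept more fell than rose. It was kept because it repeats exactly.

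UMIs were summed for each mouse and gate with at least 20 cells. Differences were tested across all genes with edgeR 4.0.16 (TMM, filterByExpr, quasi-likelihood F test, Benjamini-Hochberg adjusted p under 0.05), with the mouse as a block in stage steps and CD4 against CD8 comparisons, and the genotype family as a covariate in the fate comparison. DESeq2 1.42.0, library size scaling, no filter, shifted thresholds and left-out mice were alternatives. CD4 against CD8 in SM cells, and the alternatives on sorting, cycling-marker UMIs, a single threshold, a step for each experiment and mice that stood apart, were added after seeing the data. The SE is the log2 fold change over the root of F. For some genes that were not called, edgeR raises the p to a Poisson bound that this SE does not hold, so no SE is printed beside such a p. Replicates were separate mice, and a mouse run on several lanes was counted once. In simulated counts for the DP step, 32.4% of genes changed by 0.25 on the log2 scale and 81.8% changed by 0.5 were called, and for CD4 against CD8 mature cells 11.8% and 36.4%. The simulations changed few genes, drawn at random, with no mouse or family effect, so these rates need not hold for the members.

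Genes named were the 5 called members with the largest rise and the 5 with the largest fall in each comparison, the isoform sets and complex II genes, and the 5 members with the highest level and the 5 with the largest spread over gates. The rarest members, Atp5f1 and Atp5k were named after their values had been seen. The members, lists and tests were chosen with earlier results of these data known. Gene positions and promoter sequences are from RefSeq (GRCm38.p6).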

Additional observations from a re-analysis of the deposited data

Results flagged for a closer look

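WT mouse 5 lay far from the other 4 WT mice in several values. In DP1 cells it was lowest for Atp5g1 (122 CPM), Atp5g3 (205 CPM), Cox7a2l (228 CPM), Cox8a (418 CPM), Ndufa4 (311 CPM), Ndufs4 (210 CPM) and Sdhd (54.4 CPM), and highest for Cox7c (1219 CPM) and Uqcr11 (460.0 CPM). Its share of member RNA in Treg-like cells was the lowest of 5 WT mice (1.60%). In each case the gap to the nearest of the others, over the whole range, was above Dixon's critical value for 5 samples. Of 41 groups examined, 10 passed. All 10 are values of WT mouse 5, and all but the Treg-like share come from its DP1 cells. They are not independent, so their number is not set against a chance rate. WT mouse 5 is 1 of the 3 mice whose libraries stood apart, and the part of that difference in these values was not tested.

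The steps were compared between sorted and unsorted mice by an edgeR interaction test. In the DP step 12 of 76 members were called, each with a higher log2 fold change in sorted mice, against 6.83% of all genes. The count was 6 with a step for each experiment (2.26% of genes) and 24 without the 3 mice that stood apart (8.24%). In the CD4 SM step 1 of 76 was called, Atp5g1, with a lower log2 fold change in sorted mice, against 3.75% of genes. With those 3 mice left out edgeR called 0 there (1 higher and 5 lower at an unadjusted p under 0.05, and 2.43% of genes), and with a step for each experiment also 0 (3 higher and 0 lower at an unadjusted p under 0.05, and 0.157% of genes).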

How the results depend on the processing

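Calls were repeated under other scaling, filters, gates and mice, and the cause of a change was not tested. The share of all genes called also moved with the setting and is not given for each. Counts of members without that share are therefore not read against all genes. From DP1 to DP2, 29 calls (11 higher and 18 lower) became 35 with raised thresholds, 36 without cells that held a cycling-marker UMI, 23 in WT mice alone and 40 in sorted mice alone, each with more rises than falls, and 67 (64 lower) with all RNA classes kept. The direction of this balance therefore depends on the cells taken out, and it also turned between versions of the clustering. Without the mouse as a replicate block the counts for the DP, CD4 SM, CD4 mature, CD8 SM and CD8 mature steps were 8, 8, 1 (a rise), 14 and 0, and for CD4 against CD8 in mature and SM cells 0 and 1. With library size they were 48, 55, 27 and 29 for the CD4 SM, CD4 mature, CD8 SM and CD8 mature steps and 18 for CD4 against CD8 in SM cells, and more fell than rose in each. In unsorted mice alone they were 13, 5, 12 and 1 (a rise). With no low-count filter they were 33 and 5 for the CD8 SM and CD8 mature steps and 17 for CD4 against CD8 in SM cells. The CD8 mature step had 14 calls with raised thresholds, 4 with all classes kept, 13 with a single threshold over all experiments, 4 in WT mice alone and 14 in sorted mice alone. DESeq2 called 16 and 19 members in mature and SM cells of WT mice, and taking out cells with a cycling-marker UMI left 14 in mature cells.

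In the fate comparison, DP1 and DP2 had 1 call each with no filter. SM cells had 4 with DESeq2 and without the mice that stood apart, 2 with library size, lowered thresholds or all classes kept, and 0 with no filter, raised thresholds, at least 50 cells, no family covariate or no cycling-marker cells. Mature cells had 6 with DESeq2 and without the mice that stood apart, and 0 with no filter, raised or lowered thresholds, no family covariate or no cycling-marker cells. Replicate numbers go with the experiment in the AND and F5 family and with nothing the labels name in the others, and were not used as pairs. Same-number correlations of deviations were 0.32 to 0.65 in the OT family, whose mice 2 both stood apart, and -0.087 to 0.12 in the others. A replicate block on them gave 7 calls in SM and 5 in mature cells, against 1 and 2 without it.

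The log2 ratio of the shares for DP2 against DP1 was -0.21 with all classes kept. Outside mitochondrially encoded and ribosomal RNA it was 0.075 for CD4 SM against DP2, -0.039 for CD4 mature and 0.17 for CD8 SM, and against quiescent DP-like cells 0.16 in mature SP-like, 0.13 in interferon-like, 0.14 in Treg-like, 0.35 in S100a6, 0.36 in CD8 SP-like, 0.24 in CD4 SP-like, 0.24 in Tesc Cd226, 0.38 in negative selection-like, 0.38 in Igfbp4 Tesc and 0.59 in cycling-like cells. CD4 against CD8 mature came to -0.17 with lowered thresholds and -0.11 without cycling-marker cells.

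Leaving out each mouse in turn gave 26 to 31 calls at the DP step, 28 to 38 for CD4 SM, 20 to 30 for CD4 mature, 39 to 53 for CD8 SM, 4 to 7 for CD8 mature, 16 to 28 for CD4 against CD8 mature, 18 to 30 for CD4 against CD8 SM, 0 in DP1 and DP2 by fate, and 0 to 3 in SM and mature cells by fate. For the genes of the naming rule, in each comparison that called them, 2695 of 3286 values kept direction and side of the threshold, 569 kept direction only, and 22 turned. In the DP step with all classes kept these were Atp5g3 (-0.0026), Atp5e (-0.026), Ndufa5 (-0.041), Sdhb (-0.098), Ndufa4 (-0.20), Ndufa12 (-0.27) and Atp5sl (0.10), and in unsorted mice Sdhb (-0.014). With library size they were Atp5g1 (-0.038), Sdha (-0.00015), Cox7c (-0.076) and Cox6c (-0.088) at CD4 SM, Atp5e (-0.011), Atp5h (-0.014) and Sdha (-0.020) at CD4 mature, and Ndufa1 (-0.062), Uqcrh (-0.0061), Cox6a1 (-0.068), Ndufa5 (-0.023), Cox7a2 (-0.035), Atp5h (-0.064) and Sdha (-0.063) at CD8 SM. The few mice of each genotype and the mixing of sort with genotype limit these comparisons.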
